A study of Mus musculus with 12 samples.

Results

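A set of 10 genes of the interleukin-1 family axis was followed in the ears of mice injected with IL-17A, IL-36γ or both cytokines. They were the ligands Il1a and Il1b with the receptor antagonist Il1rn, the receptors Il1r1 and Il1r2, the protease Casp1, the pair Il18 and Il18r1, and the pair Il33 and Il1rl1. The 10 genes were chosen by name and matched through the gene symbols in the deposited tables, and all of them were found among the 50684 genes of the count table and passed the filter on low counts, which left 19408 genes.

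RNA-Seq was performed on 12 ears of 8 week old C57BL/6 mice, with 3 mice in each of 4 groups. PBS served as the vehicle control, and the other groups received IL-17A, IL-36γ or IL-17A + IL-36γ, with 1 µg of each cytokine in 5 µl given into the skin of the ear pinna. Ears were collected on day 4, after 4 days of consecutive treatment. RNA was taken from a part of the ear, and 3 of the 5 mice of each group were sequenced. The model is acute, it has no genetic alteration, and the tissue is a mixture of epidermis, dermis, glands, muscle and infiltrating cells, so that fewer cells of a type and less RNA per cell cannot be told apart.

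IL-1α and IL-1β signal through the receptor encoded by Il1r1, and the signal is held back by the antagonist encoded by Il1rn and by the decoy receptor encoded by Il1r2. IL-1β and IL-18 are made as precursors that caspase-1 cleaves within inflammasomes, whereas IL-33 is stored in nuclei of barrier cells and acts on ST2, the product of Il1rl1. The signalling receptors among these use MyD88, and in skin the family is known for the recruitment of neutrophils and the activation of keratinocytes and lymphocytes. The libraries report transcript levels, not cleavage, storage or release of the proteins.

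Totals of counts lay between 25293468 and 34759293 per library. Expression is given as CPM, that is counts scaled to a common library size by TMM, and groups were compared with edgeR's quasi-likelihood test with Benjamini-Hochberg adjustment over all 19408 genes. Raised and lowered genes are those that passed both an adjusted p of 0.05 and a 2-fold change, that is a log2 value beyond 1 in either direction. For the interaction of the cytokines, a call needs the adjusted p alone, with no fold threshold. Markers of skin were present in every library, with summed levels of 7 keratinocyte genes from 13700 to 35190 CPM and of 6 fibroblast genes from 6542 to 13350 CPM. PBS replicate 2 stood apart from the other PBS libraries in Il1b and in the sum of 9 neutrophil markers. Most of that sum was S100a8 and S100a9, and the other 7 markers summed to 23.8 CPM against 16.6 and 14.8 CPM. PBS replicate 1 stood apart in skeletal muscle genes, which summed to 174.5 CPM against 1616 and 1928 CPM in the other PBS libraries. Values without these libraries are given beside the results that rest on them. The 5 summed muscle genes spanned 100.8 to 1928 CPM over all libraries, and the 5 sebaceous gland genes were between 6092 and 9908 CPM in PBS and between 3241 and 4041 CPM after both cytokines.

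Of the 10 genes, none was called after IL-17A, Il1rn was raised after IL-36γ, and Il1b and Il1rn were raised after IL-17A + IL-36γ. None was called lowered in any group. Over all genes tested, 1.07% were raised and 1.03% lowered by IL-17A, 5.11% raised and 1.98% lowered by IL-36γ, and 7.35% raised and 6.06% lowered by both cytokines. The IL-17A total rested on single libraries. It was 407 genes with all libraries, 913 without PBS replicate 1, 142 and 11 without PBS replicate 2 and 3, and 33 and 212 without IL-17A replicate 1 and 2, and it was 9 when only these 2 groups entered edgeR. For the count of 0 after IL-17A, 6 members had an unadjusted p below 0.05 in edgeR and DESeq2 called 0, while DESeq2 called 1 member after IL-36γ and 3 after both cytokines, the third being Casp1. Without the fold threshold, 3 members passed with IL-17A, 3 with IL-36γ and 7 with the combination, beside 10.9, 28.4 and 44.6% of all genes. The median log2 fold change of the 10 genes was 0.395 with IL-17A, 0.354 with IL-36γ and 0.508 with the combination, beside medians over all genes of 0.042, -0.015 and -0.025. The 3 comparisons share the PBS libraries.

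**Figure D1:**
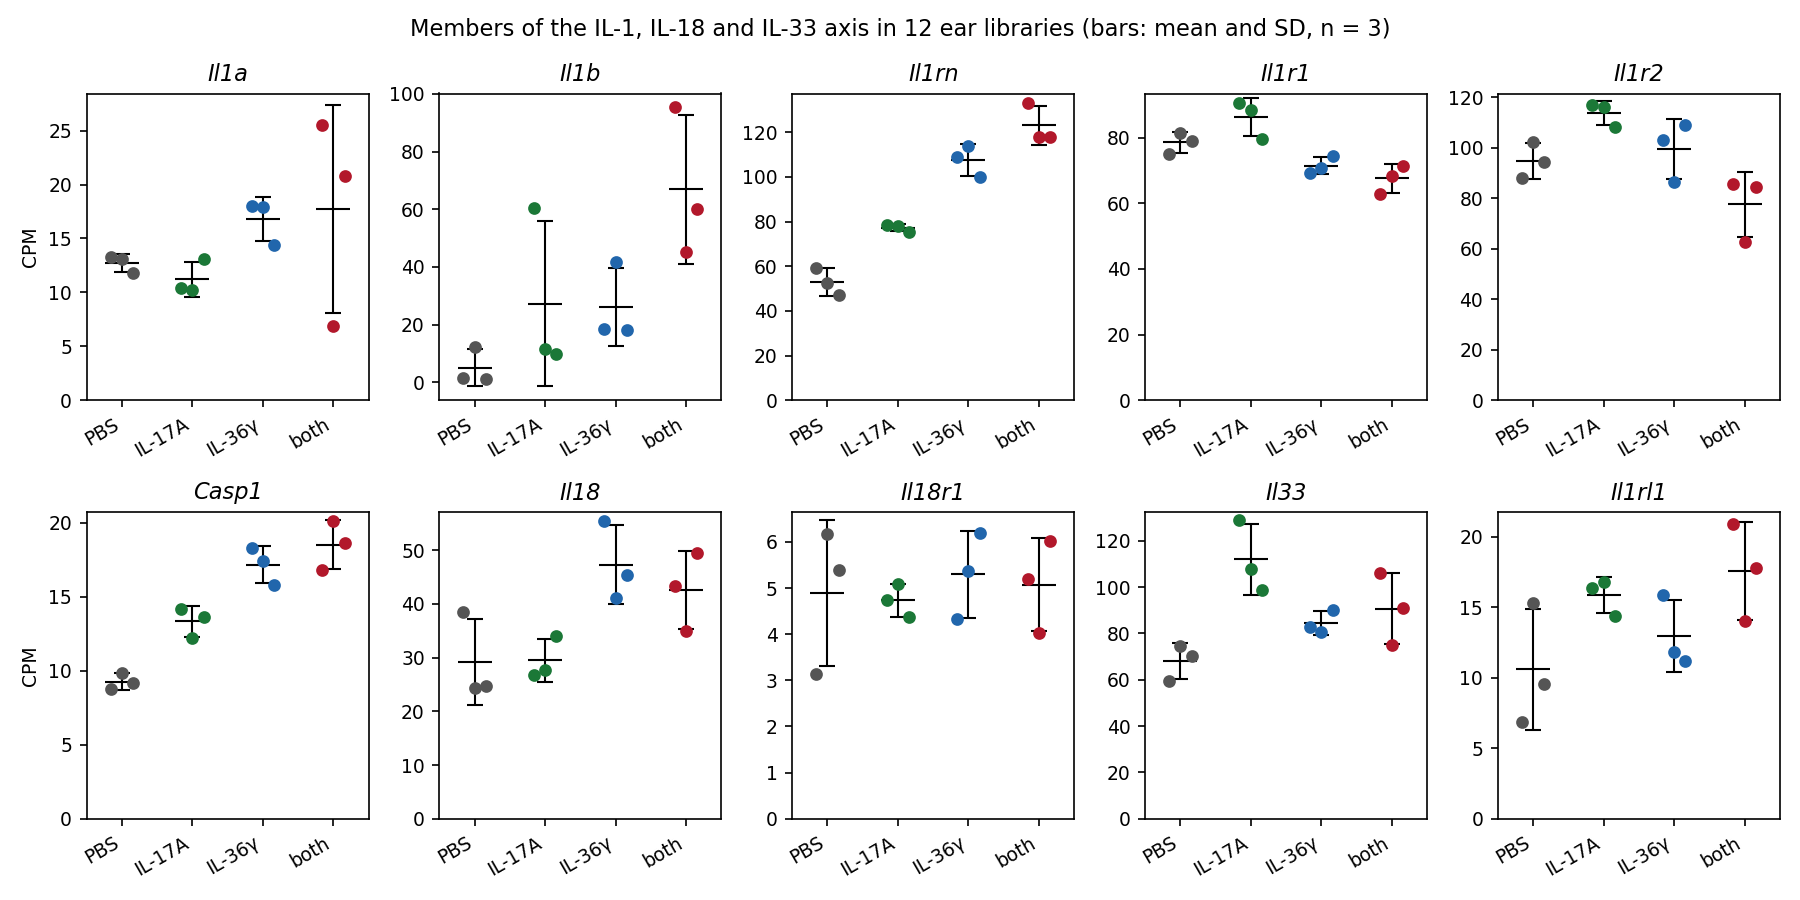
Expression of the 10 genes in CPM on the vertical axis of each panel, with the 4 groups along the horizontal axis. Points are single mice, and the bars give mean and SD (n = 3). Il1rn and Casp1 in the treated groups lie above every PBS library, whereas Il1b is scattered within groups.

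Il1b encodes IL-1β and lies on the minus strand at chr2:129364570-129371139 of GRCm38. It was the member with the highest log2 fold change in each comparison with PBS, and the one with the widest spread. In PBS, its level was 1.61, 12.4 and 1.12 CPM, from 58, 439 and 37 counts. After IL-17A it was 60.3, 11.5 and 9.94 CPM, and after IL-36γ 18.6, 41.6 and 18.1 CPM. After both cytokines it reached 95.3, 45.3 and 60.0 CPM. The libraries of IL-36γ and of both cytokines all lay above those of PBS, whereas 2 of the 3 IL-17A libraries lay below PBS replicate 2. The groups IL-17A and IL-36γ overlapped with each other, and both cytokines together overlapped with IL-17A through a single high mouse of that group.

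The mean level of Il1b was 5.05 ± 6.39 CPM in PBS and 66.9 ± 25.7 CPM after both cytokines (SD, n = 3), a log2 fold change of 3.72 (SE 0.89, edgeR adjusted p = 0.00537). After IL-17A the mean was 27.2 ± 28.6 CPM, with a log2 fold change of 2.42 (SE 0.86, edgeR adjusted p = 0.0843). After IL-36γ it was 26.1 ± 13.4 CPM, with a log2 fold change of 2.37 (SE 0.86, edgeR adjusted p = 0.0583). Both values against PBS are large in size, yet they did not pass the test. Single libraries decided them. Without PBS replicate 2, Il1b was called in all 3 comparisons, with log2 fold changes of 4.30, 4.25 and 5.61 (edgeR adjusted p = 0.0415, 0.00884 and 0.00109). Without IL-17A replicate 1, the value after IL-17A was 1.05 (edgeR adjusted p = 0.466), and the call after IL-36γ was gained at 2.35 (edgeR adjusted p = 0.0287).

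**Figure D2:**
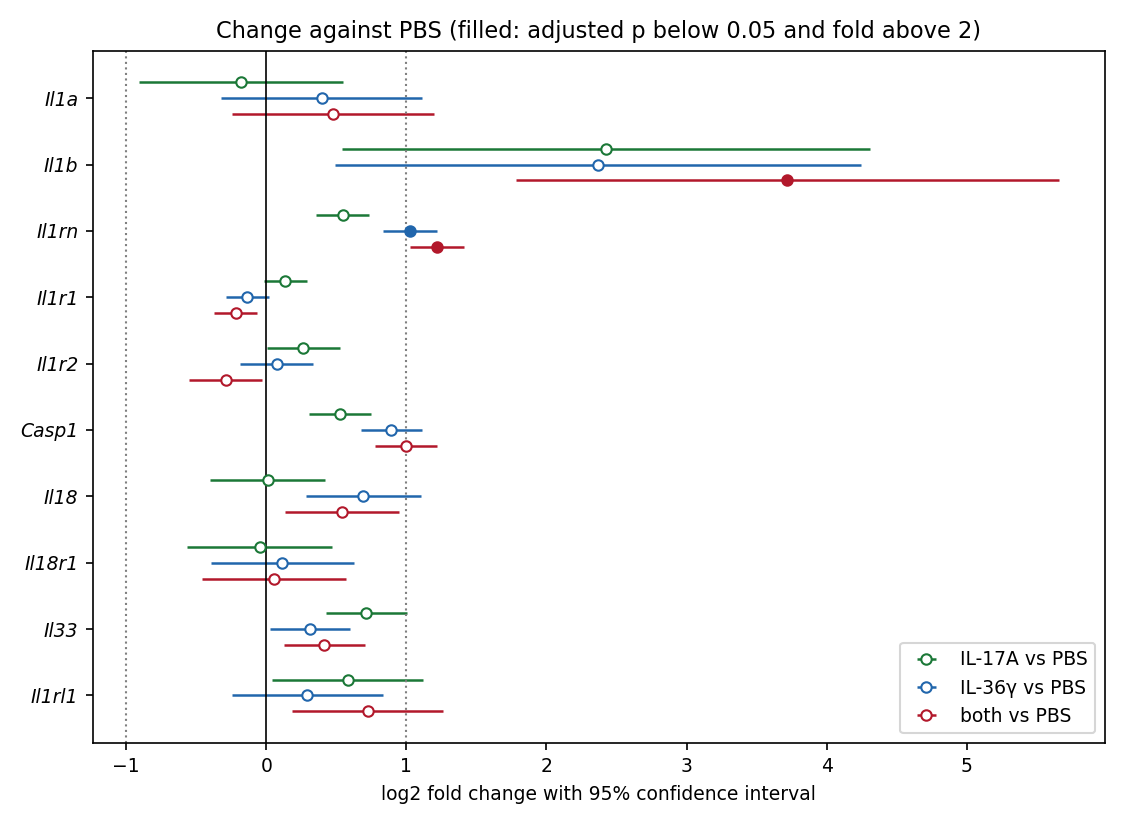
Log2 fold change against PBS on the horizontal axis with the 95% confidence interval of the edgeR fit, for each of the 10 genes and each treated group. Filled points passed both thresholds, and dotted lines mark a log2 value of -1 and 1. Il1b has the widest intervals, and Il1rn has narrow ones that lie above 0 in all 3 comparisons.

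Il1a encodes IL-1α and is the neighbour of Il1b, with a gap of 54.6 kb between the genes on chromosome 2 and the same strand. It was close to the PBS level in most libraries, with 13.3, 13.1 and 11.8 CPM in PBS and 10.4, 10.2 and 13.1 CPM after IL-17A. After IL-36γ it was 18.0, 17.9 and 14.4 CPM, all above PBS, and after both cytokines 25.5, 6.88 and 20.8 CPM. Replicate 2 of the last group was the lowest of all 12 libraries, so that this group overlapped with every other group. No comparison passed for Il1a, with log2 fold changes against PBS of -0.18, 0.40 and 0.48 (SE 0.33 each, edgeR adjusted p = 0.746, 0.381 and 0.26). Without that library, the log2 fold change after both cytokines was 0.85 (edgeR adjusted p = 0.00141), still under the fold threshold, and without replicate 1 of the same group it was 0.13 (edgeR adjusted p = 0.795). Of the stretches of 76 bases in its exons, 7.899% also lie in exons of Gm14023 on the opposite strand, and the strand setting of the counting was not given in the sources used here.

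Il1rn encodes the IL-1 receptor antagonist and lies at chr2:24336853-24351494 on the plus strand. Its level was 59.2, 52.5 and 47.0 CPM in PBS, 78.4, 78.1 and 75.3 CPM after IL-17A, 109, 114 and 100 CPM after IL-36γ, and 133, 118 and 118 CPM after both cytokines. None of the 4 groups overlapped with another, and the levels were ordered PBS, IL-17A, IL-36γ, both. The log2 fold change was 1.03 after IL-36γ (SE 0.09, edgeR adjusted p = 3.58e-05) and 1.22 after both cytokines (SE 0.09, edgeR adjusted p = 5.62e-06), and both were called. After IL-17A it was 0.55 (SE 0.09, edgeR adjusted p = 0.012), under the fold threshold, and 0.46 to 0.64 with 1 library left out (edgeR adjusted p from 0.00114 to 0.0798). The step from IL-36γ to both was 0.19 (SE 0.09, edgeR adjusted p = 0.319). The call after IL-36γ rested on a value just past the threshold, and it was lost at 0.95, 0.99 and 0.99 without PBS replicate 3, IL-36γ replicate 1 or IL-36γ replicate 2. The counts sum the transcripts of Il1rn for the secreted and the intracellular forms.

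The promoters of these 3 genes are shown because Il1b and Il1rn were raised after both cytokines while Il1a, the neighbour of Il1b, was not. Each runs 5′ to 3′ on the strand of the gene and ends at the base before its first exon, with bases from RefSeq (GRCm38.p6). They cover chr2:129309973-129310222, chr2:129371140-129371389 and chr2:24336610-24336852. Capitals mark matches to AP-1 (TGANTCA) or to the TATA box (TATAAA).
Il1a: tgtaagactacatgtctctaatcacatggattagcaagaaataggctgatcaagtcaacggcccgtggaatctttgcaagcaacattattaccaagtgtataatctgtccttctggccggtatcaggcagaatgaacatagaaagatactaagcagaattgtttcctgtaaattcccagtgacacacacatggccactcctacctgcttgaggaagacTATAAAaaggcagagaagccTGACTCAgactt
Il1b: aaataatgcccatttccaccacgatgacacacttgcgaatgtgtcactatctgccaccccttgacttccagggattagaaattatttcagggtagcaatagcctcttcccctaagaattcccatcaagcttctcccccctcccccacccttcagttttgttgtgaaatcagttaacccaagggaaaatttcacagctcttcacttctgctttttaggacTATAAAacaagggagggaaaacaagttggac
Il1rn: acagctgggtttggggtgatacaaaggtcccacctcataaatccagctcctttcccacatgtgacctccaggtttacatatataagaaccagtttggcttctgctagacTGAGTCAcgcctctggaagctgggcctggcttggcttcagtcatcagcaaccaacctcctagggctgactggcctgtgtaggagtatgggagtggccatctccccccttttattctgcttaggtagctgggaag
Searched on both strands were the kappa B consensus, AP-1, C/EBP (TTGCNNAA), STAT (TTCNNNGAA) and the TATA box, which have a match in 3.9, 6.7, 9.6, 7.0 and 12.4% of all 32851 promoter windows of 250 bases. Il1a holds a TATA box at -32 and an AP-1 match at -12 from the start, Il1b a TATA box at -31, and Il1rn an AP-1 match at -141 from its first start. Starts 2 and 3 of Il1rn, at chr2:24345291 and chr2:24345371, have 0 matches in their windows and are not shown. The matches are letters in these windows, and no factor was measured at them.

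The signalling receptor gene Il1r1 and the decoy receptor gene Il1r2 lie side by side on chromosome 1, with a gap of 99.8 kb. Per kb of exon, Il1r2 had the highest level of the 10 genes in PBS, at 49.6 CPM per kb, against 12.3 CPM per kb for Il1r1. Il1r1 was 75.1, 81.5 and 79.0 CPM in PBS, 90.5, 88.5 and 79.7 CPM after IL-17A, 69.3, 70.7 and 74.3 CPM after IL-36γ, and 62.9, 68.3 and 71.5 CPM after both cytokines. All libraries of the last 2 groups lay below PBS, and those of IL-17A overlapped with PBS. The log2 fold change was -0.22 after both cytokines (SE 0.07, edgeR adjusted p = 0.0264), a small difference that is not a call, and between both cytokines and IL-17A it was -0.35 (SE 0.07, edgeR adjusted p = 0.00335).

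Il1r2 was 87.8, 102 and 94.1 CPM in PBS, and 117, 116 and 108 CPM after IL-17A. After IL-36γ it was 103, 86.3 and 109 CPM, and after both cytokines 85.5, 62.8 and 84.2 CPM. All IL-17A libraries lay above PBS and all libraries of both cytokines lay below PBS, whereas IL-36γ overlapped with PBS. Between both cytokines and IL-17A the log2 fold change was -0.55 (SE 0.12, edgeR adjusted p = 0.00484). Against PBS the values were 0.26 (SE 0.12, edgeR adjusted p = 0.154) after IL-17A and -0.29 (SE 0.12, edgeR adjusted p = 0.0678) after both, so neither passed.

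Within a library, the ratio of counts of 2 genes does not depend on the scaling of the libraries. It does depend on gene length, and exons cover 1907 bases in Il1b, 5535 in Il1rn, 1908 in Il1r2 and 6363 in Il1r1. In PBS, IL-17A, IL-36γ and both, mean CPM per kb of exon were 2.65, 14.28, 13.69 and 35.07 for Il1b. For Il1rn they were 9.56, 13.96, 19.45 and 22.24, so a percent of counts below 100 does not mean fewer transcripts of Il1b. Counts of Il1b, the agonist, amounted to 2.71, 23.7 and 2.39% of those of the antagonist Il1rn in PBS, 76.9, 14.7 and 13.2% after IL-17A, 17.0, 36.6 and 18.1% after IL-36γ, and 71.6, 38.4 and 50.8% after both cytokines. The ratio after both cytokines lay above every PBS library, and the groups of single cytokines overlapped with PBS. On the log2 scale the mean difference to PBS was 2.20 after IL-17A (exact permutation test, two-sided p = 0.3), 2.07 after IL-36γ (exact permutation p = 0.3) and 3.28 after both (exact permutation p = 0.1, the smallest that 3 against 3 allows). Adjusted over 6 ratio comparisons, these p-values were 0.36, 0.36 and 0.3, so the design could not reach 0.05. Without PBS replicate 2, the log2 differences were 3.28, 3.14 and 4.35 in this order. The lowest values with 1 library left out were 1.38 (without IL-17A replicate 1), 1.48 and 2.69 (both without PBS replicate 3).

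Counts of the decoy receptor gene Il1r2 were 117, 125 and 119% of those of Il1r1 in PBS, 130, 131 and 135% after IL-17A, 149, 122 and 147% after IL-36γ, and 136, 91.9 and 118% after both cytokines. The IL-17A libraries lay above those of PBS by a log2 difference of 0.13 (exact permutation p = 0.1, adjusted p = 0.3), and the other groups overlapped with PBS. The differences there were 0.21 after IL-36γ (exact permutation p = 0.2) and -0.08 after both (exact permutation p = 0.8).

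**Figure D3:**
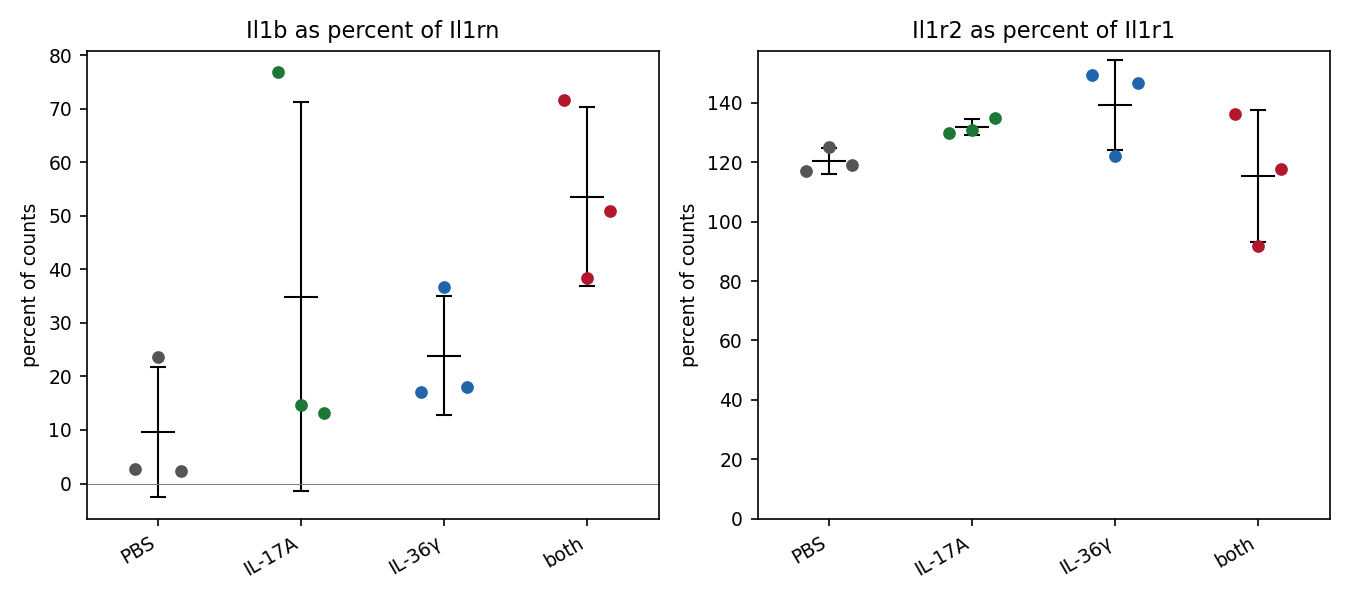
Counts of Il1b as percent of Il1rn (left) and of Il1r2 as percent of Il1r1 (right) in the 12 libraries, with mean and SD (n = 3). The counts are not scaled by gene length. The Il1b share is 38.4% or more in the 3 libraries of both cytokines and reaches 76.9% in 1 library of IL-17A.

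Casp1, the protease that cleaves the precursors of IL-1β and IL-18, was 8.75, 9.85 and 9.18 CPM in PBS and 14.2, 12.2 and 13.6 CPM after IL-17A. After IL-36γ it was 18.3, 17.4 and 15.8 CPM, and after both cytokines 16.8, 20.1 and 18.6 CPM. Every treated library lay above every PBS library, and IL-36γ and both cytokines overlapped. Against PBS it had log2 fold changes of 0.53, 0.89 and 0.998 in this order (SE 0.10 each, edgeR adjusted p = 0.0176, 0.000137 and 3.1e-05). The last value lay just under the fold threshold. It passed in DESeq2 at 1.00, and in edgeR without PBS replicate 2, IL-36γ replicate 2 or 3, or replicate 1 or 3 of both cytokines, at values up to 1.06. The value after IL-17A was 0.44 to 0.565 with 1 library left out, with edgeR adjusted p from 0.0122 to 0.101.

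Il18 encodes IL-18, which keratinocytes make as a precursor. It was 38.5, 24.4 and 24.8 CPM in PBS, 26.7, 27.7 and 34.1 CPM after IL-17A, 55.4, 41.1 and 45.3 CPM after IL-36γ, and 43.3, 34.97 and 49.4 CPM after both. Only the IL-36γ libraries were clear of PBS, since PBS replicate 1 lay within the range of both cytokines. Its log2 fold change was 0.69 after IL-36γ (SE 0.19, edgeR adjusted p = 0.0178), 0.54 after both (SE 0.19, edgeR adjusted p = 0.0348) and 0.01 after IL-17A (SE 0.19, edgeR adjusted p = 0.978), with an interval from -0.40 to 0.42. Between IL-36γ and IL-17A it was 0.68 (SE 0.19, edgeR adjusted p = 0.0471). Il18r1, the gene of the ligand-binding receptor chain, lay between 3.13 and 6.17 CPM in PBS and between 4.02 and 6.197 CPM in the treated libraries, with log2 fold changes of -0.05, 0.11 and 0.05 (edgeR adjusted p from 0.74 to 0.915).

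Il33 had its highest levels after IL-17A. It was 59.6, 74.5 and 70.4 CPM in PBS, 129, 108 and 99.0 CPM after IL-17A, 82.8, 80.6 and 90.3 CPM after IL-36γ, and 106, 75.1 and 91.2 CPM after both. All treated libraries lay above PBS, and the IL-17A libraries lay above those of IL-36γ. The log2 fold change was 0.71 after IL-17A (SE 0.13, edgeR adjusted p = 0.0155), 0.31 after IL-36γ (SE 0.13, edgeR adjusted p = 0.0952) and 0.42 after both (SE 0.13, edgeR adjusted p = 0.0234), so it was under the fold threshold in each. With 1 library left out, the value after IL-17A was 0.57 to 0.80, with edgeR adjusted p from 0.0103 to 0.0905. The direct comparison of IL-36γ with IL-17A gave -0.40 (SE 0.13, edgeR adjusted p = 0.0803).

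Il1rl1 encodes ST2, the IL-33 receptor, in a membrane and a soluble form that the counts do not separate, and Il18r1 starts 136 bases downstream of it. Its level was 6.89, 15.3 and 9.58 CPM in PBS, 16.4, 16.8 and 14.4 CPM after IL-17A, 15.9, 11.8 and 11.2 CPM after IL-36γ, and 20.9, 14.0 and 17.8 CPM after both. Because of PBS replicate 2, each treated group overlapped with PBS. The log2 fold change after both was 0.73 (SE 0.25, edgeR adjusted p = 0.0318), and 1.10 without that library (edgeR adjusted p = 0.00232), and it was 0.49 without PBS replicate 1 (edgeR adjusted p = 0.118). After IL-17A it was 0.58 (SE 0.25, edgeR adjusted p = 0.134) and after IL-36γ 0.29 (SE 0.25, edgeR adjusted p = 0.392). Without PBS replicate 2 these became 0.94 and 0.655 (edgeR adjusted p = 0.0485 and 0.049), and without PBS replicate 1 they became 0.35 and 0.06 (edgeR adjusted p = 0.341 and 0.843).

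Across the members, the libraries of a treated group and of PBS did not overlap for 4 genes after IL-17A, all higher, for 6 higher and 1 lower after IL-36γ, and for 4 higher and 2 lower after both cytokines. Among all genes tested, 33.6, 41.7 and 52.5% did not overlap in the same comparisons.

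The direct comparisons of treated groups called none of the 10 genes. Of all genes, 8.95% were called between both cytokines and IL-17A, 1.61% between IL-36γ and IL-17A, and 0.0103% between both cytokines and IL-36γ. At an unadjusted p below 0.05, edgeR counted 6, 5 and 2 members in these comparisons, and DESeq2 called 0 in each. Il1rn, Il1r1, Il1r2, Casp1 and Il18 had an adjusted p below 0.05 between both cytokines and IL-17A, with Il1rn at a log2 value of 0.67 (SE 0.09, edgeR adjusted p = 0.000376) and Casp1 at 0.47 (SE 0.10, edgeR adjusted p = 0.00435). For Il1b the same comparison gave 1.296 (SE 0.79, edgeR adjusted p = 0.232), and 2.66 without IL-17A replicate 1 (edgeR adjusted p = 0.0302). Between both cytokines and IL-36γ, Il1b differed by 1.35 (SE 0.79, edgeR adjusted p = 0.438), with non-overlapping libraries.

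The interaction asks if the log2 change by IL-17A differs with and without IL-36γ. At an adjusted p below 0.05, with no fold threshold, it was called for 0.551% of all genes and for none of the 10 genes. edgeR counted 4 members at an unadjusted p below 0.05, Il1r2, Il33, Casp1 and Il1rn, and DESeq2 called 2, Il1r2 and Il33. The total over all genes moved widely, from 107 in edgeR to 1797 in DESeq2, and in edgeR from 1 without IL-36γ replicate 1 to 1534 without PBS replicate 1. The edgeR values were -0.63 for Il1r2 (SE 0.17, adjusted p = 0.0781) and -0.61 for Il33 (SE 0.19, adjusted p = 0.0997). They were -0.42 for Casp1 (SE 0.14, adjusted p = 0.119) and -0.35 for Il1rn (SE 0.12, adjusted p = 0.127). Il1b, which was not among these 4, had -1.07 (SE 1.15, edgeR adjusted p = 0.604). On the linear scale, the level after both cytokines was compared with a sum, the PBS level plus the change from PBS by each single cytokine. Il1r2 lay 41.1 CPM below this sum (SE 11.3), with the excess given as -41.1 CPM, and Il33 had an excess of -37.2 CPM (SE 13.7). For Il1b the excess was 18.6 CPM (SE 23.8), less than its error, and for Il1rn -8.95 CPM (SE 7.40). It was -11.6 CPM for Il1r1 (SE 4.82) and -2.79 CPM for Casp1 (SE 1.38).

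Markers of infiltrating cells moved with the groups. The 9 neutrophil genes summed to 25.7, 100.5 and 20.4 CPM in PBS, 885, 387 and 728 CPM after IL-17A, 3268, 4848 and 2289 CPM after IL-36γ, and 10070, 7786 and 7627 CPM after both cytokines. Most of this sum in the treated libraries and in PBS replicate 2 came from S100a8 and S100a9, which inflamed keratinocytes also express. The other 7 genes summed to between 14.8 and 23.8 CPM in PBS and 29.0 and 69.0 CPM after IL-17A. They summed to between 63.6 and 94.5 CPM after IL-36γ, and 108 and 219 CPM after both. Ly6g, the defining marker, had 0 counts in each PBS library and 15 to 22 counts after both cytokines. In each of the 4 groups, the library with the highest Il1b was also the library with the highest neutrophil sum. The order differed between groups, since IL-17A replicate 1 had 60.3 CPM of Il1b at a sum of 885 CPM. The part of neutrophils in the level of Il1b was not tested.

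**Figure D4:**
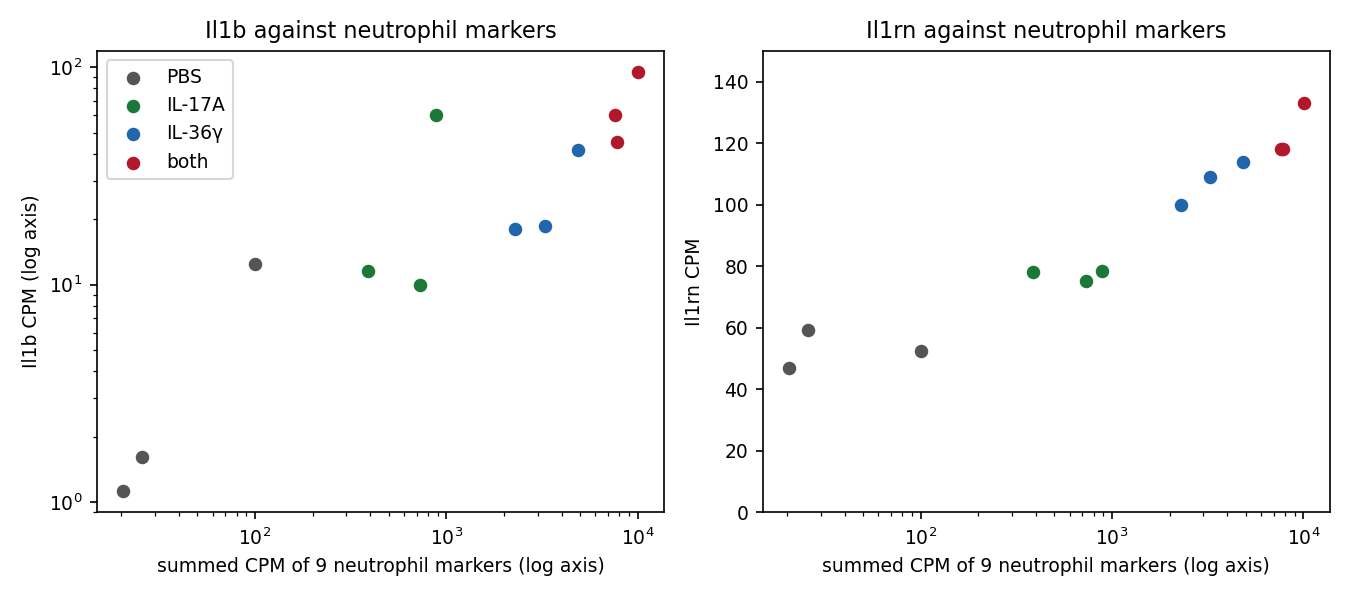
Il1b (left, log axis) and Il1rn (right) in CPM against the summed CPM of 9 neutrophil markers (log axis), 1 point per mouse. Il1rn spans 47.0 to 133 CPM and the marker sum 20.4 to 10070 CPM, and PBS replicate 2 lies apart from the other PBS mice in the left panel at 12.4 CPM.

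The 10 monocyte and macrophage genes summed to between 580.1 and 696.5 CPM in PBS and 909.6 and 1289 CPM after IL-17A. The sum lay between 1483 and 1639 CPM after IL-36γ and 1424 and 1538 CPM after both. Every treated library lay above PBS in this sum and also in the neutrophil and keratinocyte sums, as for Casp1, Il1rn and Il33. The 7 keratinocyte genes lay between 13700 and 18890 CPM in PBS and between 19360 and 21220 CPM after IL-17A. They lay between 23030 and 31290 CPM after IL-36γ and between 29330 and 35190 CPM after both. Krt10, Krt14, Krt5 and Krt1 made up most of this sum, with Krt10 at up to 364813 counts and Trp63 at up to 12307. Of the 7 genes, 2 were raised and 1 was lowered after both, so this sum does not speak for each gene. Mast cell genes lay between 217 and 327.6 CPM over all libraries, and endothelial genes between 142.6 and 196.3 CPM. The sum of T and innate lymphoid genes lay between 129.4 and 147.4 CPM in PBS and between 142.1 and 149 CPM with IL-36γ. It was higher than PBS at 151.6 to 214.5 CPM with IL-17A, and lower at 125.8 to 128 CPM with the combination. Most of this sum was Thy1, with 2416 to 4399 counts per library against at most 413 for any other gene of the list. Of the 8 genes, 2 were raised after IL-36γ, and 1 was raised and 1 lowered after both, so the sum does not speak for each gene. Of all genes, 5.11% were raised after IL-36γ, and 7.35% were raised and 6.06% lowered after both. The sum of Langerhans cell genes lay between 694.2 and 932.2 CPM in PBS and 980.1 and 1081 CPM after IL-17A. It lay between 784 and 966.7 CPM after IL-36γ, and 599 and 709 CPM after both. Cd74 (6794 to 16771 counts), H2-Aa (5413 to 12399) and Epcam (2652 to 4464) made up most of it, and Cd207 had 39 to 850 counts. Of the 4 genes, 1 was lowered after IL-36γ and 1 after both, beside 1.98 and 6.06% of all genes. Fibroblast genes lay between 8731 and 10650 CPM in PBS and 6542 and 8025 CPM after both. The Langerhans cell, fibroblast, endothelial, T and innate lymphoid, skeletal muscle and sebaceous gland lists were highest on average after IL-17A. These lists were lowest after both, and Il1r2 and Il1r1 were highest and lowest in the same groups. The part of the lists in the results was not tested.

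By their log2 CPM over the 12 libraries, the genes most like Il1b were Clec4e, Trem1, Cxcl2, Osm and Serpinb6b, with Pearson's r of 0.989, 0.983, 0.982, 0.977 and 0.977, against a median of -0.055 over all genes. The genes most like Il33 were Prdx3, Anxa11, Sdhaf2, Zfp825 and Nudt4, with r of 0.958, 0.92, 0.919, 0.901 and 0.887, against a median of 0.06. The points share the 4 groups and the libraries, so the values describe likeness only.

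The genes around the axis showed where the groups differed in the rest of the pathway. Of 11 tested IL-1 target genes, IL-17A raised 5, IL-36γ raised 7 and both cytokines raised 9, beside 1.07, 5.11 and 7.35% of all genes. Their median log2 fold change was 1.84, 2.22 and 3.23, beside medians near 0 over all genes. Lcn2, an iron-sequestering antimicrobial protein, was 2.51 ± 0.93 CPM in PBS and 106 ± 10.2 CPM after both (SD, n = 3), a log2 fold change of 5.40 (SE 0.24, edgeR adjusted p = 7.08e-07). The neutrophil chemoattractants Cxcl5 and Cxcl1 had log2 fold changes of 4.88 and 3.98 (edgeR adjusted p = 0.0016 and 6.67e-05). The 5 genes raised by IL-17A were the only ones called among all 43 tested genes around the axis, and this count was 3 or fewer without PBS replicate 1, 2 or 3, IL-17A replicate 1 or 2, IL-36γ replicate 1 or 2, or replicate 2 of both cytokines, with a lowest value of 1 without PBS replicate 3. Many of these genes are also known targets of IL-17A and IL-36γ, so the list does not single out IL-1.

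Of 10 inflammasome genes, 0 were called after IL-17A, 4 after IL-36γ (Nlrp1a, Aim2, Mefv and Casp4) and 5 after both, with Nlrp3 added. Of all genes tested, 1.07, 5.11 and 7.35% were raised in these comparisons. For the count of 0, 2 of the 10 had an edgeR adjusted p below 0.05, beside 10.9% of all genes. Casp4 was just under the fold threshold there, at 0.99 (SE 0.25, edgeR adjusted p = 0.0328). The other was Pycard at 0.38 (SE 0.10, edgeR adjusted p = 0.0373). Mefv, which encodes pyrin, had a log2 fold change of 1.86 after both (SE 0.36, edgeR adjusted p = 0.00161), and Casp4, the caspase that senses lipopolysaccharide, 1.76 (SE 0.25, edgeR adjusted p = 0.000203). Nlrp3 was 2.76 ± 2.54 CPM in PBS and 11.8 ± 4.37 CPM after both (SD, n = 3), with a log2 value of 2.09 (SE 0.69, edgeR adjusted p = 0.027), and this call was lost without PBS replicate 1, PBS replicate 3 or replicate 1 of both cytokines (1.78, 1.73 and 1.75, edgeR adjusted p = 0.0673, 0.0971 and 0.0947), while without PBS replicate 2 it was 3.18 (edgeR adjusted p = 0.00591).

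Of 5 tested receptors and soluble inhibitors, Il18rap alone was called, after IL-36γ and after both, where 5.11 and 7.35% of all genes were raised. Il18rap encodes the signalling chain of the IL-18 receptor, and its log2 fold change was 1.97 after IL-36γ (SE 0.37, edgeR adjusted p = 0.00282) and 3.10 after both (SE 0.38, edgeR adjusted p = 9.26e-05), while its partner Il18r1 was not called. Sigirr, an inhibitory receptor of the family, had -0.70, -0.55 and -0.49 in the 3 comparisons (edgeR adjusted p = 0.0151, 0.00649 and 0.00653), under the fold threshold. None of 11 MyD88 signal genes was called in any comparison with PBS. An edgeR adjusted p below 0.05 was reached by 2, 4 and 7 of them, beside 10.9, 28.4 and 44.6% of all genes. Myd88 itself had a log2 value of 0.78 after both (SE 0.11, edgeR adjusted p = 0.000211).

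Of 9 genes that report IL-18 and IL-33 responses, 5 were tested. Foxp3 and Areg, which mark regulatory T cells and tissue repair rather than the classical type 1 and type 2 cytokines, were raised after IL-36γ and after both, with log2 fold changes after both of 3.48 (SE 0.50, edgeR adjusted p = 0.000224) and 1.75 (SE 0.47, edgeR adjusted p = 0.00998). Foxp3 had at most 38 counts in a library, and Areg lost its call without replicate 3 of both cytokines (1.14, edgeR adjusted p = 0.053). Ifng, Il4, Il5 and Il13 had at most 5, 10, 6 and 9 counts in a library, so changes were not detectable at this depth. Of 3 neutrophil proteases that can cleave IL-1 family precursors, only Ctsg was tested, which mast cells also express. It was lowered after both cytokines, with a log2 fold change of -1.11 (SE 0.38, edgeR adjusted p = 0.0328), and -0.55 without PBS replicate 1 (edgeR adjusted p = 0.156). This call was also lost without replicate 2 or 3 of both cytokines (-0.88 and -1.18, edgeR adjusted p = 0.112 and 0.058) and with only these 2 groups in edgeR (-1.12, adjusted p = 0.0761). Elane and Prtn3 had at most 1 and 8 counts.

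**Figure D5:**
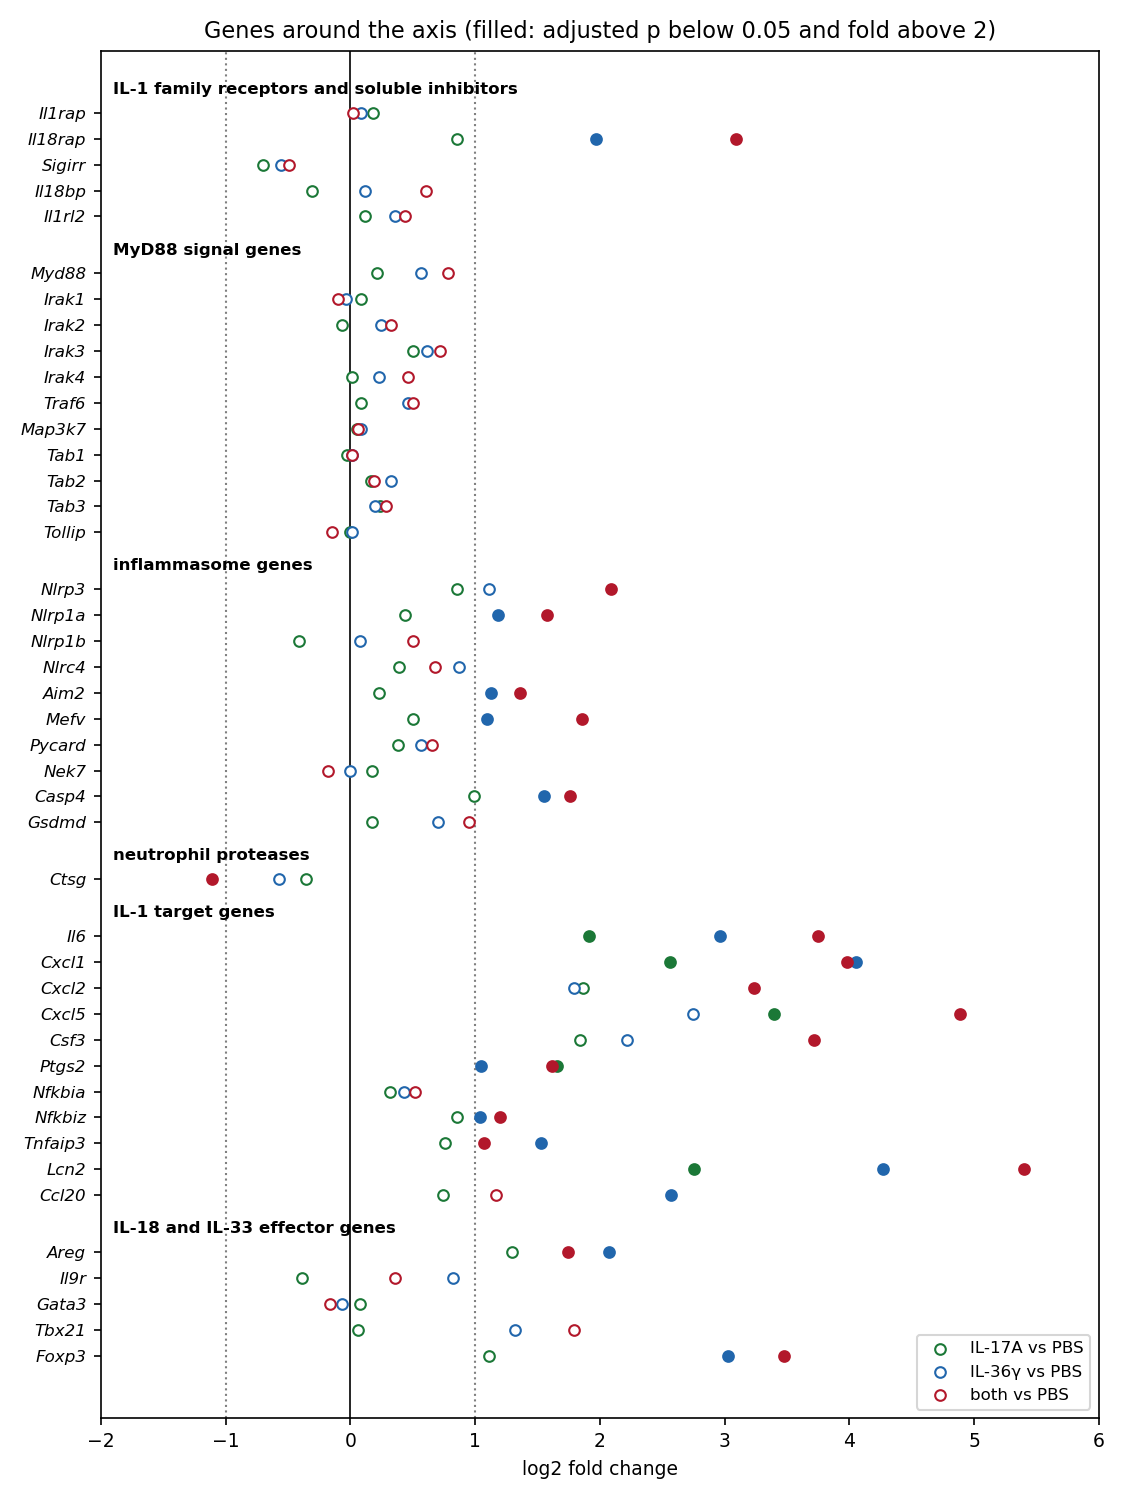
Log2 fold change against PBS on the horizontal axis for the 43 tested genes around the axis, grouped by list, with 1 point for each treated group. Filled points passed both thresholds. The IL-1 target genes lie farthest to the right, with Lcn2 at 5.40 after both cytokines, and no MyD88 signal gene is filled.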

How the data were processed

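RNA of the ears was sequenced from TruSeq stranded libraries. Per the labels, the authors mapped reads with STAR 2.5.2b on the mm10 build and obtained the deposited raw counts per gene with featureCounts (Subread 1.5.1). The authors' own DESeq2 tables were used for gene symbols only. Their fold changes and p-values were left out.

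Counts were filtered with filterByExpr (minimum count 10), scaled by TMM and tested in 1 fit of 12 libraries with edgeR 4.0.16 in R 4.3.3. DESeq2 1.42.0 was an alternative. Other alternatives covered the scaling, the filter, the 2 groups only, the fold threshold, a replicate block and each library left out. Replicates are separate mice, and replicate pairs differed by more than sampling noise. Depth limits genes of few counts. On simulated data of 19144 genes, 200 were changed in the IL-17A + IL-36γ group, by a log2 value of 2 up or down. Of these, 89% were called for both cytokines against PBS and 77.5% in the interaction. Smaller changes, which most members had, were not simulated, so these shares do not apply to them. Lengths came from GENCODE exons of GRCm38.

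The genes and lists were chosen with earlier results of these data known. The text names all members, up to 3 called genes of each list with the largest change, and genes singled out after their values were seen (Nlrp1a, Aim2, Pycard, Sigirr, Myd88, Ifng, Il4, Il5, Il13, Elane and Prtn3).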

Additional observations from a re-analysis of the deposited data

Results flagged for a closer look

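The interaction passed the test for Lcn2, an IL-1 target gene, with a log2 value of -1.62 (SE 0.30, edgeR adjusted p = 0.0475). On the log2 scale, its change by IL-17A was smaller in the presence of IL-36γ. In CPM the step was larger there, from a mean of 48.6 to 106 CPM, against 2.51 to 17.0 CPM without IL-36γ. No gene around the axis was called for the interaction under either alternative scaling (relative log expression factors, or library size alone), nor without PBS replicate 3, any single IL-17A library, IL-36γ replicate 1 or 3, or replicate 1 or 2 of both cytokines.

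Il1r2 lay on opposite sides of its control. Every IL-17A library was above every PBS library, and every library of both cytokines was below every IL-36γ library. The test of this difference, the interaction, gave -0.63 (SE 0.17, unadjusted p = 0.00298, edgeR adjusted p = 0.0781), so it did not pass the correction.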

How the results depend on the processing

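Other settings changed calls near the thresholds, and the cause was not tested unless the setting itself gives it. Calls of the interaction need an adjusted p below 0.05 and no fold change. Without the fold threshold, the number of members called against PBS was 3 with IL-17A, 3 with IL-36γ and 7 with the combination, 5 between both and IL-17A and 4 between IL-36γ and IL-17A, and that of the genes around the axis was 11, 25, 33 and 20 in the first 4 of these comparisons. Of all genes, 10.9, 28.4 and 44.6% passed in the 3 comparisons with PBS. Without the filter on low counts, Il1b was called after IL-17A (1 member), Il1b and Il1rn after IL-36γ (2 members), and 1 gene around the axis between both and IL-36γ and 4 in the interaction. Scaling by library size only moved the median of all genes by -0.17, -0.15 and -0.143 in the 3 comparisons with PBS, and no member was called after IL-36γ (0, with Il1rn at 0.88). In the interaction, the genes around the axis called were 0 with library size only and with relative log expression factors. DESeq2 on all libraries called 2 members (Il1r2 and Il33) and 7 genes around the axis in the interaction, and 1 gene around the axis between both and IL-36γ, or 2 when fitted on the 2 groups only. After IL-17A, 3 genes around the axis were called with at least 10 counts in every library and 1 with only the 2 groups in edgeR.

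Leaving out 1 library each, the members called ranged from 0 to 1 after IL-17A, 0 to 2 after IL-36γ, 2 to 4 after both, 0 to 1 between both and IL-17A (Il1b without IL-17A replicate 1, Il1a without replicate 2 of both) and 0 to 1 in the interaction (Il1rn without PBS replicate 1). The genes around the axis called ranged from 1 to 6 after IL-17A (5 with all libraries), 0 to 1 between both and IL-36γ (0), 1 to 5 between IL-36γ and IL-17A (4) and 0 to 7 in the interaction (1).

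Values near 0 that were not called changed sign. With library size only these were Il1r1 after IL-17A (-0.039), Il1r2 after IL-36γ (-0.079), and Il18r1 after IL-36γ (-0.040) and after both (-0.098). Il18 after IL-17A was -0.15 with library size only, -0.017 with DESeq2 on 2 groups, -0.0065 with relative log expression factors, -0.026 without filter, -0.0098 with at least 10 counts in every library and -0.024 with only the 2 groups in edgeR. Leaving out 1 library, the ranges were -0.11 to 0.26 for Il18 and -0.28 to 0.15 for Il18r1 after IL-17A, -0.13 to 0.31 for Il18r1 after IL-36γ, -0.18 to 0.26 for Il18r1 after both, -0.024 to 0.24 for Il33 between both and IL-36γ, -0.57 to 1.298 for Il1b between IL-36γ and IL-17A, -2.94 to 0.31 for Il1b in the interaction, and -0.21 to 0.073 for the log2 ratio of Il1r2 to Il1r1 after both.

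Samples with the same replicate number had correlations from -0.199 to 0.352 with 9 of 18 pairs above 0.1, and those with different numbers from -0.503 to 0.364 with 9 of 36 above 0.1. These values cannot decide if the numbers pair the mice, since a shared effect need not put every same-number pair above 0.1. The main fit used no pairing. With the replicate block, 2 members (Il1b at 2.51 and Il1rn) were called after IL-36γ, 5 genes around the axis in the interaction, and Il1b between IL-36γ and IL-17A was 0.065. Over all genes, the block moved the interaction calls from 107 to 883.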
